A study of Mus musculus with 19 samples.

Results

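Ccn3 (older symbol Nov) encodes a secreted protein of the CCN family of matricellular proteins. It was followed library by library in sorted mouse hematopoietic stem and progenitor cells, as 1 gene of the 24210 gene symbols in the deposited tables. Ccn3 has 1 RefSeq accession in those tables, with an exon length of 2365 bases, so no choice between transcripts was needed. The gene was chosen by its measured counts in these libraries, which were higher in the leukemic groups than in wild-type cells. Its levels against wild type are therefore given as a description with no test.

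The 19 RNA libraries came from uncultured cells of C57BL/6 mice, sorted as lin- Sca+ cKit+ (LSK), the gate that holds blood stem cells and early progenitors. Wild-type (WT) mice with no treatment gave 4 libraries. Idh2 R140Q;Flt3-ITD mice with acute myeloid leukemia (AML) gave 3 libraries under vehicle (IDH2-FLT3 vehicle) and 4 under AG-221, an inhibitor of mutant IDH2. Tet2-/- mice with AML and a Flt3 allele that the labels spell Flt3-IDT gave 4 libraries under vehicle (TET2-FLT3 vehicle) and 4 under 5-Aza, a hypomethylating drug. All 15 leukemic libraries carry the Flt3 allele, so an effect of the Flt3 allele cannot be told apart from one of leukemia, and line and drug cannot be told apart between the treated groups. AG-221 was dosed by mouth over 4 to 5 weeks, at 100 mg/kg when used as a single agent and at 40 mg/kg when combined, and which dose stands behind each library is not given. 5-Aza, at 5 mg/kg by injection, followed 4 cycles of 21 days, each with 5 days of dosing. Age, sex and the driver of any conditional allele are not given in the sources used here, nor whether each library came from its own animal. The p-values therefore measure the spread between these libraries, which may be technical.

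CCN proteins are secreted into the matrix around cells, where they bind integrins and growth factors and change how cells read those signals. CCN3 is known to bind integrins, to interact with the extracellular part of Notch1, and to bind bone morphogenetic proteins. In human blood it has been studied as a regulator of stem cell function, and its loss has been described downstream of BCR-ABL in chronic myeloid leukemia.

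Each library held between 9635795 and 20383132 assigned counts, and 1 count of Ccn3 in a WT library was worth 0.0766 CPM in wt1, where CPM is the usual scaling of counts to library size. The sort could not be checked on its own markers, because Kit reached at most 2 counts and Ly6a 0 in any library. Both have several accessions in the table, and 61.6% of accessions of such genes were at 0 in every library, against 18.7% of accessions of genes with 1. Flt3 gave 303 to 534 CPM in WT and 58.3 to 666 CPM over the leukemic libraries, and Tet2 gave 117 to 145 CPM in WT, 36.4 to 107 CPM in the 5-Aza libraries and 58.7 to 156 CPM in those of their vehicle group. Idh2 gave 132 to 203 CPM in WT and 153 to 544 CPM in IDH2-FLT3 vehicle. These genes do not read the engineered alleles, so they do not check the genotypes. The vehicle columns headed V3-2 and V5-2 share numbers with V3 and V5, and the relation is not given. Their counts differed from those of V3 and V5 far beyond counting error, at a chi-square per gene of 309 and 314, where pairs within a group ran from 15.9 (wt1 with wt2) to 551 (V1 with V5-2). They were kept as libraries of their own. Both are the deepest libraries, and Ccn3 in CPM was 1.95 times as high in V3-2 as in V3 and 1.94 times as high in V5-2 as in V5. Library V1 of TET2-FLT3 vehicle detected 12088 accessions, the fewest of all 19.

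Ccn3 was nearly silent in WT LSK cells and present in every leukemic library. The 4 WT libraries held 4, 0, 2 and 2 counts, which is 0.306, 0, 0.165 and 0.161 CPM (mean ± SD 0.158 ± 0.13, n = 4). The 0 counts of wt2 allow up to 0.226 CPM at a floor of 3 counts. IDH2-FLT3 vehicle held 91 counts in V3, 312 in V3-2 and 363 in V9, or 7.67, 15 and 29.1 CPM (17.3 ± 10.9, n = 3). All 3 lay above every WT library.

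AG-221 libraries gave 97.9 CPM in AG1, 40.7 in AG12, 37.7 in AG13 and 23 in AG8 (49.9 ± 33, n = 4). AG1 was more than any other library of its group, and AG8 lay below V9 of the vehicle group. TET2-FLT3 vehicle gave 98.9 CPM in V1, 117 in V19, 51 in V5 and 99.3 in V5-2 (91.6 ± 28.4, n = 4). V19 was the highest of all 19 libraries, and V5 lay apart below the other 3 of its group. With 5-Aza the level was 16.8 CPM in AZ10, 33.2 in AZ11, 7.13 in AZ16 and 51.3 in AZ17 (27.1 ± 19.4, n = 4). AZ16 was the lowest leukemic library and AZ17 lay just above V5.

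**Figure D1:**
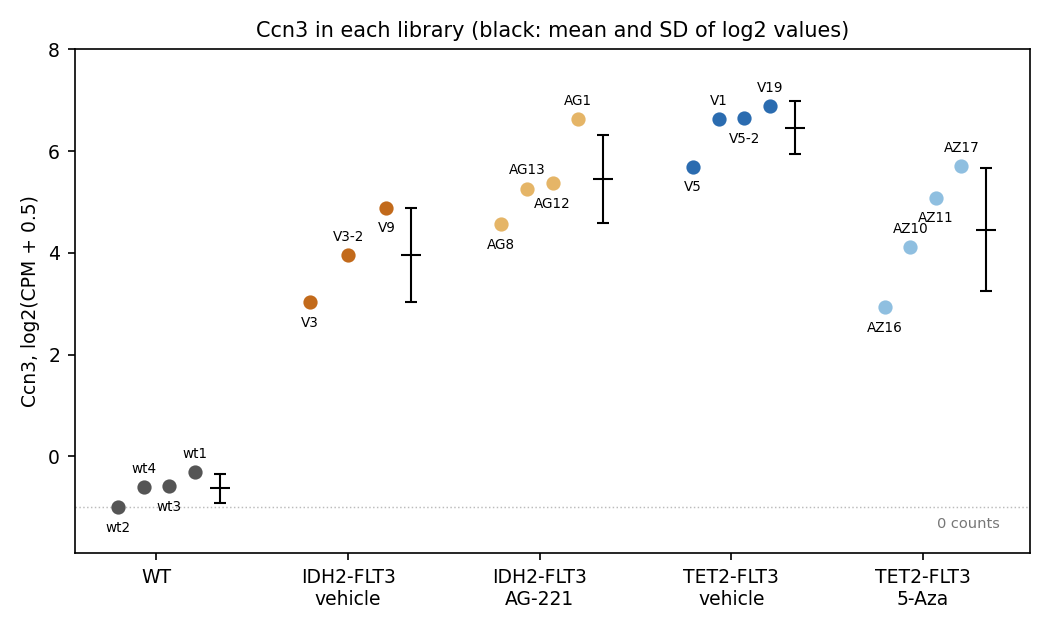
Ccn3 in each of the 19 libraries, as log2(CPM + 0.5) on the vertical axis, by group on the horizontal axis; points are libraries and the black mark and bar give the mean and SD of the log2 values. The 4 WT libraries lie at or below 0.306 CPM and all 15 leukemic libraries lie at 7.13 CPM or more.

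The lowest leukemic library of each group was many times the highest WT library: 25 times for IDH2-FLT3 vehicle, 75.1 times for AG-221, 167 times for TET2-FLT3 vehicle and 23.3 times for 5-Aza. The WT value rests on 8 counts over 4 libraries, so the size of the fold is loose. Pooled over libraries, the ratio to WT was 108 (exact 95% counting interval 54.4 to 251) for IDH2-FLT3 vehicle and 302 (153 to 701) for AG-221. It was 572 (290 to 1320) for TET2-FLT3 vehicle and 166 (84.1 to 386) for 5-Aza. These intervals cover counting error only, and PCR copies of reads are not independent molecules. Fitted log2 fold changes against WT were 6.69 for IDH2-FLT3 vehicle, 8.22 for AG-221, 9.10 for TET2-FLT3 vehicle and 7.34 for 5-Aza. Of 11830 accessions tested, 75 (0.634%) had all 15 leukemic libraries above all 4 WT libraries, and Ccn3, chosen for this pattern, is among them. In bulk RNA, fewer cells with Ccn3 and less Ccn3 RNA per cell cannot be told apart.

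On a scale per length, Ccn3 sat in the lowest part of the WT range of expressed genes and in the middle or upper part of the leukemic one. In the deposited FPKM values, 0 to 16.9% of the accessions detected in a WT library lay below Ccn3. That share was 48.5% in V3, 57% in V3-2 and 66.7% in V9, 66.1 to 83.4% in AG-221 libraries, 48.7 to 73.9% in 5-Aza libraries and 75.9 to 85.9% in those of TET2-FLT3 vehicle. Mean FPKM was 0.0759 ± 0.0588 (SD) in WT, 6.98 ± 4.52 in IDH2-FLT3 vehicle, 21.2 ± 13.8 with AG-221, 37.5 ± 13.9 in TET2-FLT3 vehicle and 10.8 ± 7.21 with 5-Aza.

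The order of the group means was TET2-FLT3 vehicle, AG-221, 5-Aza, IDH2-FLT3 vehicle and WT. Libraries of neighbouring groups overlapped for TET2-FLT3 vehicle with AG-221, for AG-221 with 5-Aza, and for 5-Aza with IDH2-FLT3 vehicle. The gap from IDH2-FLT3 vehicle to WT did not overlap. Spread within a leukemic group was wide: the highest library was 3.79 times the lowest in IDH2-FLT3 vehicle, 4.25 times with AG-221, 7.2 times with 5-Aza and 2.3 times in TET2-FLT3 vehicle.

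Between the vehicle groups, Ccn3 was lower in the IDH2 line than in the TET2 line. All 3 IDH2-FLT3 vehicle libraries, at 7.67 to 29.1 CPM, lay under all 4 TET2-FLT3 vehicle libraries, at 51 to 117 CPM. The TET2-FLT3 mean was 5.31 times the IDH2-FLT3 mean. The fitted difference was -2.41 ± 0.62 (SE) on the log2 scale (95% interval -3.70 to -1.12). Its adjusted p was 0.0303 by edgeR's quasi-likelihood test. An exact two-sided permutation test over the 7 libraries gave p = 0.0286, the smallest this design allows. In this comparison 4.28% of accessions passed, 2.35% lower in the IDH2 line, and 4.51% did not overlap in that direction. The call ended when V3, V3-2, V1 or V19 was left out, with an adjusted p of 0.199, 0.105, 0.053 and 0.0737 respectively, and it also ended when V3-2 and V5-2 were both left out (0.0986). Leaving out V9 moved the difference to -3.02.

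Within the IDH2 line the AG-221 libraries had more Ccn3, short of the threshold. Their mean was 2.89 times that of vehicle, with overlap at AG8 and V9. The log2 difference was 1.53 ± 0.60 (95% interval 0.28 to 2.77, adjusted p = 0.0976 by edgeR), and the exact permutation p was 0.0857. Over all accessions, 9.68% passed in this comparison, 4.39% higher and 5.29% lower with AG-221. Leaving out AG1 took the difference to 0.97, and leaving out V9 took it to 2.14, where the adjusted p was 0.036.

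Within the TET2 line the 5-Aza libraries had less Ccn3, also short of the threshold. The vehicle mean was 3.38 times that of 5-Aza, with overlap only at AZ17 and V5 (51.3 against 51 CPM). The log2 difference was -1.76 ± 0.54 (95% interval -2.89 to -0.63, adjusted p = 0.122 by edgeR), and the exact permutation p was 0.0571. Here 1.88% of accessions passed, 0.431% higher and 1.45% lower with 5-Aza. The p passed the threshold with no filter on low counts (adjusted p = 0.0254), with DESeq2 (0.0309) and with limma-voom (0.0273).

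Between the treated groups the difference in Ccn3 did not pass the test. AG-221 libraries had a mean 1.84 times that of 5-Aza libraries, a log2 difference of 0.88 ± 0.53 (95% interval -0.23 to 1.99, adjusted p = 0.562 by edgeR; exact permutation p = 0.229). The interval reaches from slightly lower to well above the level with 5-Aza, so equal levels were not shown either. In this comparison 0.744% of accessions passed.

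The fitted responses of Ccn3 to AG-221 in the IDH2 line and to 5-Aza in the TET2 line had opposite signs, and neither passed alone. All 4 AG-221 libraries lay above the mean of their vehicle group, and all 4 5-Aza libraries lay below the mean of theirs. How many other genes share that pattern of libraries was not counted. The difference of the log2 responses was 3.29 ± 0.81 (95% interval 1.60 to 4.97), with an adjusted p of 0.0954 by edgeR, rank 73 of 11830 by p. In this comparison 0.228% of accessions passed (27), while 1831 had an unadjusted p under 0.05. With DESeq2 the adjusted p was 0.00494, and with the compared groups alone 0.192. Opposite signs are common: 2555 of 11830 (21.6%) had a fitted change above 0 with AG-221 and below 0 with 5-Aza. Of the same 11830, 186 (1.57%) had a fitted log2 difference of at least 1 with AG-221 and of at most -1 with 5-Aza. Ccn3 was one of them.

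**Figure D2:**
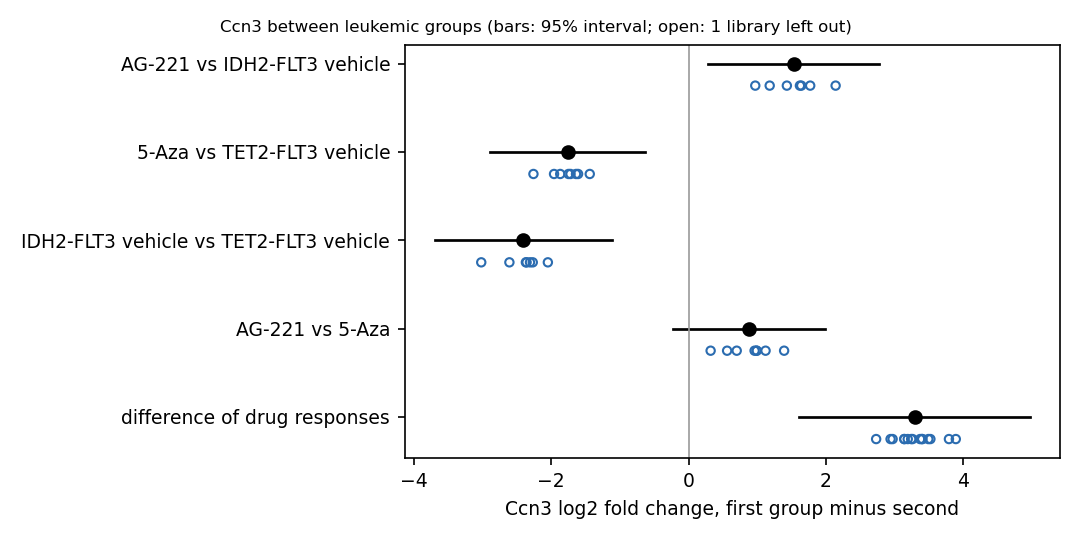
Ccn3 differences between leukemic groups, log2 fold change of the first group minus the second on the horizontal axis; filled points with bars are estimates with 95% intervals, open points the estimate with 1 library left out. Each estimate keeps its sign in the left-out fits, and the interval of AG-221 against 5-Aza crosses 0.

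Marker RNA of blood cell types also differed between the groups. The summed level of 14 stem cell markers ran from 881 to 1330 CPM in WT and from 45.8 to 162 CPM in IDH2-FLT3 vehicle. It was 348 to 621 CPM with AG-221, 486 to 869 CPM with 5-Aza and 276 to 508 CPM in the TET2-FLT3 vehicle libraries. Of 10 stem cell markers tested, 7 were lower in IDH2-FLT3 vehicle than in WT, where 10.4% of all accessions were lower. With AG-221 against vehicle 6 were higher, where 4.39% of all were higher. The 6 became 3 without V3 or V3-2, and the 7 were 7 to 9 over the left-out fits. IDH2-FLT3 vehicle, the leukemic group with the least Ccn3, held the least stem marker signal. WT held the most and had almost no Ccn3. In the TET2 line the median sum was 652 CPM with 5-Aza and 315 CPM with vehicle. Mean Ccn3 there was 27.1 CPM with 5-Aza and 91.6 CPM with vehicle. The part of stem cell content in the level of Ccn3 was not tested. Ly6a and Tek were among those at 0 in all groups, and Kit was at 0 in both TET2 groups.

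Markers of granulocyte-monocyte progenitors (9 genes) summed to 2200 to 12900 CPM in WT, 20000 to 105000 CPM in IDH2-FLT3 vehicle, 6900 to 18800 CPM with AG-221, 5410 to 6820 CPM with 5-Aza and 5890 to 10600 CPM in the TET2-FLT3 vehicle libraries. Among IDH2-FLT3 vehicle libraries, V3 had the highest sum (105000 CPM) with the lowest Ccn3, and V9 the lowest sum (20000 CPM) with the highest Ccn3. The same held for V5 (10600 CPM) and V19 (5890 CPM) in TET2-FLT3 vehicle, and for AZ16 (6820 CPM) and AZ17 (5410 CPM) with 5-Aza. It did not hold with AG-221, where AG12 had the highest sum (18800 CPM) and AG8 (10300 CPM) the lowest Ccn3. Erythroid markers summed to 94 to 190 CPM in WT, 5.24 to 9.46 CPM in IDH2-FLT3 vehicle, 7.55 to 34.1 CPM with AG-221, 30.7 to 70.8 CPM with 5-Aza and 2.73 to 8.64 CPM in the TET2-FLT3 vehicle libraries. Within the TET2 line, 5 of 7 erythroid markers tested were higher with 5-Aza, as were 0.431% of all 11830 tested. That count was 2 without V1, V5, V5-2, AZ16 or AZ17. B-cell markers summed to 526 to 667 CPM in WT and to 49.1 to 149 CPM over the leukemic libraries. The part of these changes in the level of Ccn3 was not tested.

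Markers of cells outside the blood lineages, which can also make CCN proteins, were summed in the same way. Mesenchymal stroma markers (12 genes) summed to 4.45 to 6.85 CPM in WT and 0.545 to 10.3 CPM in leukemic libraries, and Pdgfra, Pdgfrb, Dcn and Bglap were at 0 in all groups. Endothelial markers (10 genes) summed to 74.7 to 96.7 CPM in WT and 25.7 to 97.5 CPM in leukemic libraries, and Pecam1, which has 4 accessions in the table, was at 0 in all groups. The part of these cells in the level of Ccn3 was not tested.

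**Figure D3:**
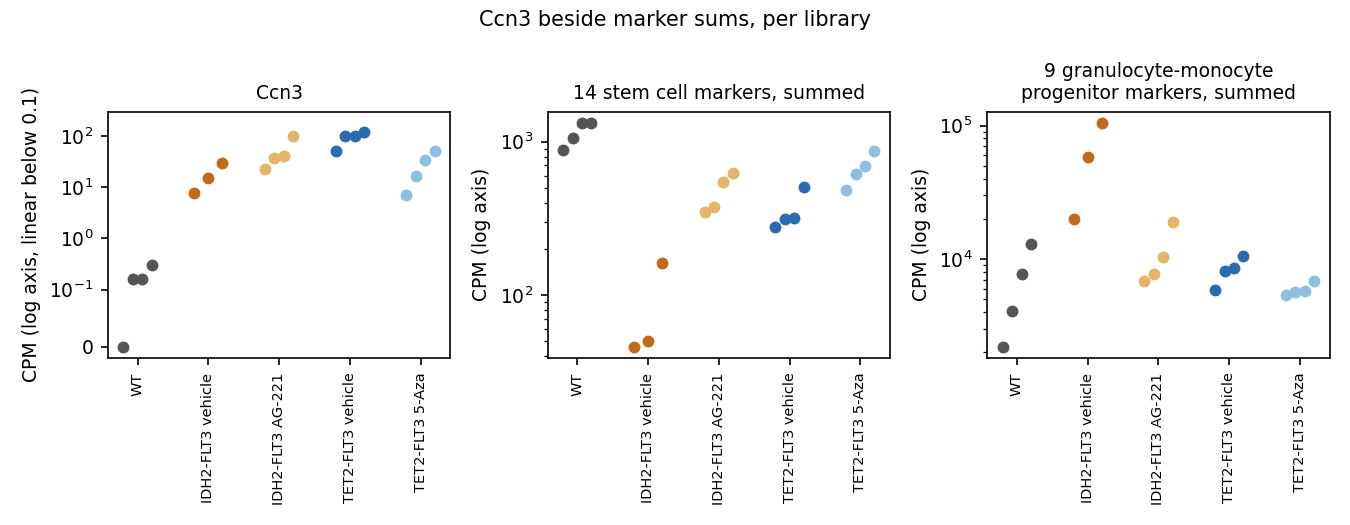
Ccn3 beside the summed level of 14 stem cell markers and of 9 granulocyte-monocyte progenitor markers, in CPM on log axes (linear below 0.1 for Ccn3), by group; each point is a library. WT libraries are lowest for Ccn3 and highest for the stem cell sum.

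Of the 6 CCN genes, Ccn3 was the only one at a level above 2.01 FPKM in any library. Ccn1, a matricellular protein known for roles in blood vessel growth, reached at most 4 counts. Ccn4, a Wnt-induced member, reached at most 11, and Ccn5, which lacks the C-terminal domain, at most 18, in AG13. These 3 did not pass the expression filter. Ccn2, known as connective tissue growth factor, was at 0 to 0.894 FPKM, with log2 differences from WT of 1.62 in IDH2-FLT3 vehicle, 1.17 in TET2-FLT3 vehicle, 1.01 with AG-221 and 2.52 with 5-Aza (adjusted p = 0.284, 0.474, 0.765 and 0.205 by edgeR). Ccn6 was at 0.335 to 2.01 FPKM and lay lower than in WT by fitted value in each leukemic group, with adjusted p from 0.0982 to 0.917. Neither Ccn2 nor Ccn6 passed the test in any comparison.

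**Figure D4:**
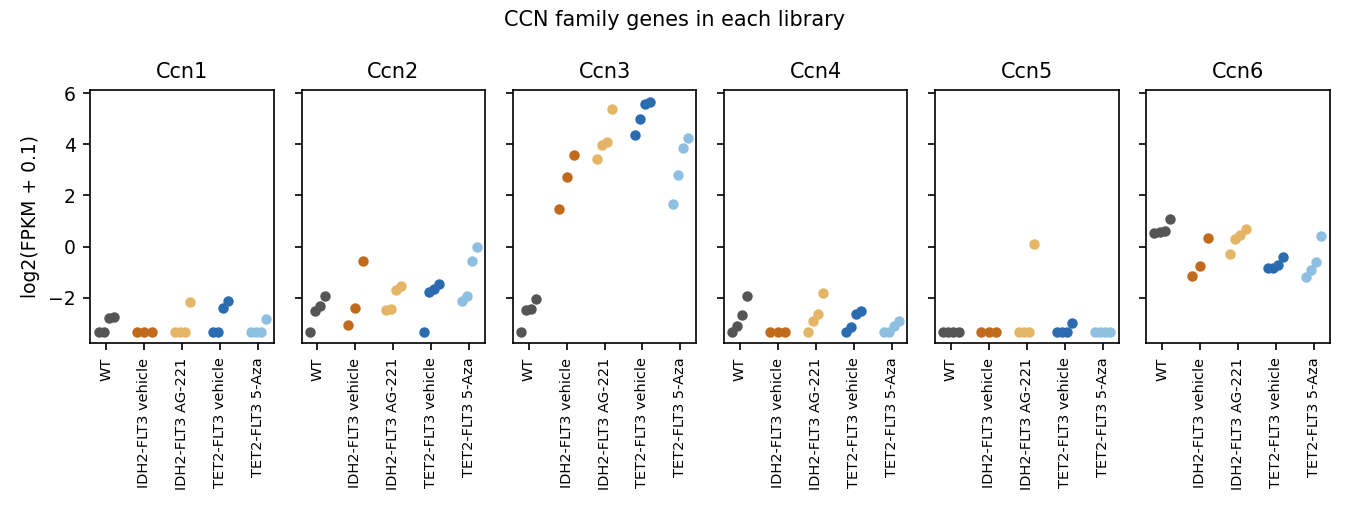
The 6 CCN family genes per library as log2(FPKM + 0.1) on a shared vertical axis, by group; each point is a library. Ccn3 stands alone above the others in the 4 leukemic groups, while Ccn1, Ccn4 and Ccn5 did not pass the expression filter.

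CCN3 receptors and partners were counted beside all accessions. Against WT, 20.5% of all accessions passed in IDH2-FLT3 vehicle (10.1% higher, 10.4% lower) and 10.1% in TET2-FLT3 vehicle (4.43% higher, 5.71% lower). With AG-221 2.71% passed (1.04% higher, 1.67% lower), and with 5-Aza 1.72% (0.617% higher, 1.1% lower). Among leukemic groups the share ran from 0.228% for the difference of drug responses to 9.68% for AG-221 against vehicle. Of 10 listed receptors and partners 8 were tested, and over the 9 comparisons 3 calls were made. No departure from the shares above is read from that count. Itgav, Itgb3, Itgb1 and Itga6, integrin subunits, and Gja1, the gap junction protein connexin 43, passed in none. Itgb1, the shared beta subunit, gave 170 to 223 CPM in WT and 177 to 432 CPM in leukemic libraries. Itgav, the alpha subunit that pairs with Itgb3, gave 46.1 to 53.7 CPM in WT and 34.6 to 78.5 CPM in leukemic libraries. Bmp2, a growth factor that CCN3 can bind, reached at most 14 counts and was not tested.

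Notch1, the receptor, was lower in AG-221 libraries than in WT. It gave 195, 173, 266 and 217 CPM in WT and 104, 82.8, 86.8 and 63.3 CPM with AG-221, with no overlap (log2 difference -1.34 ± 0.29, adjusted p = 0.0113 by edgeR). In that comparison 8.85% of accessions were lower with no overlap. Without wt3 the adjusted p was 0.0524. IDH2-FLT3 vehicle gave 163, 191 and 131 CPM of Notch1, and AG-221 against that vehicle did not pass (-0.94 ± 0.30, adjusted p = 0.0526). Itga5, an alpha subunit of the fibronectin receptor, was lower with AG-221 than with vehicle (-1.12 ± 0.34, adjusted p = 0.0447), at 38.6, 44.1, 36.6 and 38.7 CPM against 79.7, 126 and 50.8 CPM, but this call ended without 6 of the 7 libraries (V3, V3-2, AG1, AG12, AG13 and AG8 in turn), at up to 0.276. Fbln1, a matrix protein, was higher in TET2-FLT3 vehicle than in WT (2.61 ± 0.74, adjusted p = 0.0305), and this call ended without 6 of 8 libraries (wt1 to wt4, V1 and V5-2 in turn), at up to 0.089.

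Calls among Notch pathway genes are read against the shares of all accessions that passed against WT. In IDH2-FLT3 vehicle 20.5% passed (10.1% higher, 10.4% lower), and in TET2-FLT3 vehicle 10.1% (4.43% higher, 5.71% lower). With AG-221 the share was 2.71% (1.04% higher, 1.67% lower), and with 5-Aza 1.72% (0.617% higher, 1.1% lower). Of 23 tested, 3 were higher and 5 lower in IDH2-FLT3 vehicle than in WT (median log2 difference -0.40, against 0.02 over all accessions). In TET2-FLT3 vehicle 2 were higher and 1 lower, with AG-221 0 and 1, and with 5-Aza 0 and 0. Without V3 the lower count in IDH2-FLT3 vehicle was 2, and without wt1 or V3-2 the higher count was 2. In TET2-FLT3 vehicle the higher count was 1 without V5-2 or any 1 of the WT libraries, and the lower count 0 without V19, V5-2 or any 1 of the WT libraries. Between drug and vehicle, 1 was higher and 2 lower with AG-221, and 0 and 1 with 5-Aza. Those with AG-221 were 0 without V3 or V3-2, and that with 5-Aza was 0 without V5-2, AZ10, AZ16 or AZ17. Over all tested, 4.39% were higher and 5.29% lower with AG-221, and 0.431% and 1.45% with 5-Aza. Hes1, a transcriptional repressor induced by Notch, gave 7.66, 3.93, 8.17 and 3.63 CPM in WT and 0, 0 and 0.241 CPM in IDH2-FLT3 vehicle. That fall (-6.18 ± 1.38, adjusted p = 0.00422) held with each library left out. Hes1 in TET2-FLT3 vehicle was 8.04 CPM in V1 and 0.405 to 0.864 CPM in the other 3. Lfng, which adds sugars to Notch receptors, was higher in TET2-FLT3 vehicle than in WT (2.32 ± 0.45, adjusted p = 0.00303), at 49 to 197 CPM against 18.4 to 26.1 CPM.

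Genes of the bone morphogenetic protein and transforming growth factor beta pathways were counted against WT in the same way. Over all tested, 10.1% were higher and 10.4% lower in IDH2-FLT3 vehicle, and 4.43% and 5.71% in TET2-FLT3 vehicle. The shares were 1.04% and 1.67% with AG-221, and 0.617% and 1.1% with 5-Aza. Of 22 tested, 3 were higher and 9 lower in IDH2-FLT3 vehicle (median -0.92), 2 and 5 in TET2-FLT3 vehicle (-0.74, against 0.07 over all accessions), 1 and 2 with AG-221 and 1 and 1 with 5-Aza. Without V3 the lower count in IDH2-FLT3 vehicle was 4, and without wt3 or wt4 the higher count was 1. In TET2-FLT3 vehicle the lower count was 1 without wt4, and the higher count was 1 without wt1, wt3, wt4, V1 or V5. With AG-221 the lower count was 1 without AG1, AG8 or any 1 of the WT libraries. With 5-Aza it was 0 whichever library was left out. Target genes in the list did not move together. Id1, a helix-loop-helix inhibitor, rose in all 4 leukemic groups (log2 differences 2.86 to 3.74), and each of the 4 calls held with every library left out. Id1 gave 2.64 to 5.96 CPM in WT and 46.4 to 63.7 CPM in IDH2-FLT3 vehicle. Id3 was lower than in WT in all 4 groups (-3.47 in IDH2-FLT3 vehicle, -3.04 in TET2-FLT3 vehicle, -3.59 with AG-221, -3.84 with 5-Aza). In IDH2-FLT3 vehicle and TET2-FLT3 vehicle, Smad7 was lower (-1.49 and -1.26) and Id2 higher (2.64 and 2.7). Each call on Id3, Smad7 and Id2 ended in at least 1 left-out fit. Tgfbr3, a co-receptor, was at 40.4, 45.1, 49.4 and 63.9 CPM in WT and at 1.77 to 10.3 CPM in the vehicle and AG-221 groups. With 5-Aza it was at 21.3, 26.6, 54 and 54.2 CPM, higher than in TET2-FLT3 vehicle (2.74 ± 0.43, adjusted p = 0.00243).

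For the next 2 lists, the shares of all 11830 tested that were higher than in WT stand beside the counts. They were 10.1% in IDH2-FLT3 vehicle, 4.43% in TET2-FLT3 vehicle, 1.04% with AG-221 and 0.617% with 5-Aza. Integrin adhesion machinery gave 3 genes higher and 0 lower of 17 tested in IDH2-FLT3 vehicle against WT. It gave 1 and 0 in TET2-FLT3 vehicle, and 0 and 0 with AG-221 or 5-Aza. The 3 in IDH2-FLT3 vehicle became 1 without wt1, wt4, V3 or V3-2. With AG-221 against vehicle 4 were lower, where 5.29% of all were lower, and 0 without V3 or V3-2. Tln2, a talin that couples integrins to actin, was higher in IDH2-FLT3 vehicle (3.73 ± 0.73, adjusted p = 0.00161) and TET2-FLT3 vehicle (2.84 ± 0.69, adjusted p = 0.0134) than in WT. Listed genes of STAT5 signalling gave 3, 5, 3 and 3 higher of 11 tested in IDH2-FLT3 vehicle, TET2-FLT3 vehicle, AG-221 and 5-Aza against WT, and 0 lower in each. Leaving out 1 library took the counts as low as 1 in IDH2-FLT3 vehicle (wt2, wt3 or wt4), 1 with AG-221 (wt1 to wt4, AG1 or AG12) and 0 with 5-Aza (wt1, wt2, wt3 or AZ11). Cish, a STAT5 target that dampens cytokine signals, gave 21.6 to 34.2 CPM in WT, 116 to 241 CPM in TET2-FLT3 vehicle (2.66 ± 0.48) and 170 to 349 CPM with AG-221 (3.18 ± 0.49).

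The genes with library profiles nearest to that of Ccn3 were named by the mean absolute difference of log2(CPM + 0.5) minus the gene's WT mean, over the 15 leukemic libraries. Among 7803 candidate accessions the median distance was 5.69, and the 8 nearest lay at 1.86 to 2.64. They were Ncam2, Stxbp6, Dhrs7c, Cox4i2, Itgae, Id1, Tshz2 and Actr3b. Their levels are given as a description with no test; Id1 is also a member of the pathway list above, where its tests against WT stand. With a pseudocount of 0.1 only 3 of the 8 stayed in the list, Ncam2, Dhrs7c and Tshz2.

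Ncam2, a neural cell adhesion molecule, was the nearest. It gave at most 0.33 CPM in WT, 0.0843 CPM in V3, 0.0962 in V3-2 and 6.73 in V9, 9.78 to 29.9 CPM with AG-221, 5.21 to 38.5 CPM in TET2-FLT3 vehicle and 2.81 to 25.7 CPM with 5-Aza. V3 and V3-2 held 1 and 2 counts of Ncam2, under the floor of 3. Tshz2, a zinc finger factor, gave 0.337, 0.385 and 3.61 CPM in V3, V3-2 and V9. The profile parted from that of Ccn3 for Itgae, the integrin alpha E subunit. Itgae gave 49.8 to 89.7 CPM in TET2-FLT3 vehicle but 0.243 to 0.632 CPM with 5-Aza, near its WT level of 0.46 to 0.604 CPM, where Ccn3 stayed at 7.13 CPM or more. Itgae with AG-221 was 153 CPM in AG13 and 6.85 to 10 CPM in the other 3 libraries. Actr3b, a subunit of an actin-branching complex, was higher in TET2-FLT3 vehicle (41.7 to 77.8 CPM) than in IDH2-FLT3 vehicle (7.93 to 10.3 CPM), as was Ccn3, but was level with AG-221 (7.49 to 10.2 CPM).

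**Figure D5:**
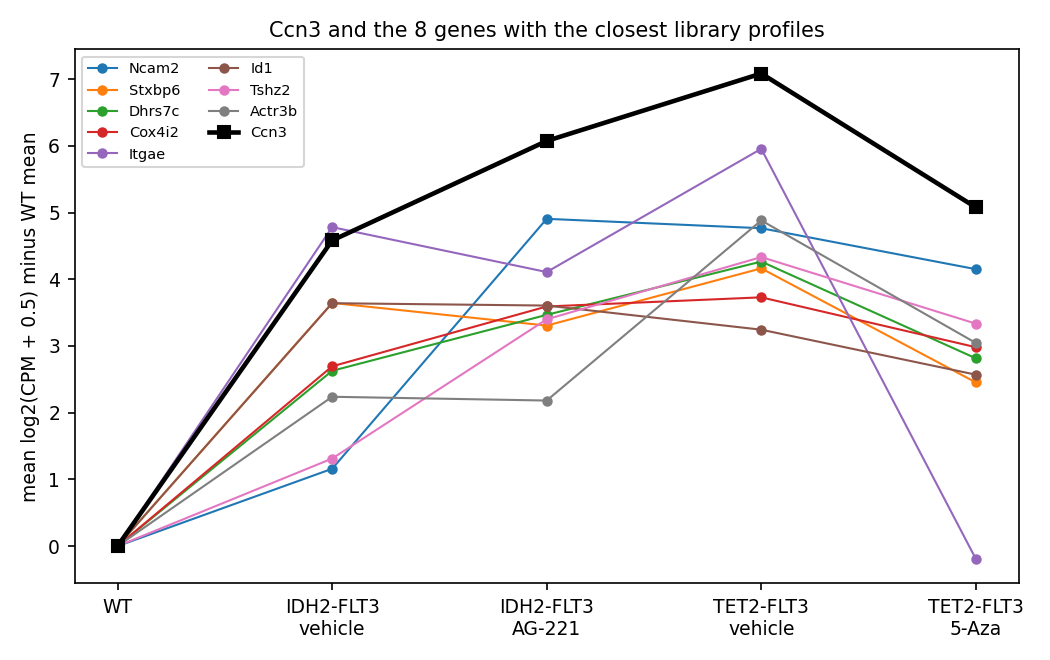
Group means of log2(CPM + 0.5) minus the WT mean for Ccn3 (black squares) and the 8 genes with the nearest profiles, by group; lines join the groups of a gene only to guide the eye. The Itgae line returns to near 0 with 5-Aza while that of Ccn3 does not.

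None of the genes tested beside Ccn3 on chromosome 15 was higher in a leukemic group than in WT. In the gene order of RefSeq's GRCm38 table, the 5 protein-coding genes on each side are Mal2, Colec10, Tnfrsf11b, Samd12 and Ext1 before it, and Enpp2, Taf2, Dscc1, Deptor and Col14a1 after it. The files use mm9, so no coordinates are given. Of these 10 genes 4 passed the expression filter, and the other 6 reached at most 15 counts in any library. Taf2, a subunit of the general transcription factor TFIID, was at 73.6 to 80.5 CPM in WT and 59.4 to 114 CPM in leukemic libraries. Dscc1, which helps load the clamp on replicating DNA, was at 34.9 to 49.4 CPM in WT and 23.2 to 44.1 CPM in leukemic libraries. Ext1, which builds heparan sulfate chains, was at 13.7 to 23.4 CPM in WT and 4.77 to 22.9 CPM in leukemic libraries. None of these 3 passed in any comparison.

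Samd12 moved the other way from Ccn3 against WT. It gave 9.34, 6.79, 9.83 and 12.9 CPM in WT and 0.169, 0.0962 and 2.08 CPM in IDH2-FLT3 vehicle, with no overlap, as for 20% of accessions. The difference was -3.66 ± 0.84 (adjusted p = 0.00499 by edgeR) and held with each library left out. Samd12 was also lower in TET2-FLT3 vehicle than in WT (-2.16 ± 0.69, adjusted p = 0.0496) and higher with AG-221 than with vehicle (2.79 ± 0.81, adjusted p = 0.0379). Those 2 calls ended without 7 of 8 libraries (all but V19 in turn) and without 5 of 7 libraries (V3, V3-2, AG1, AG12 and AG8 in turn).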

How the data were processed

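Ccn3 was analysed in 19 RNA libraries in 5 groups. Libraries were made from polyA RNA with the SMARTer Ultra Low Input kit, per the labels' protocols. Reads were aligned to mm9 with STAR 2.4.0f1 and counted with featureCounts of Subread 1.4.5-p1, per the submitters' processing notes. Raw counts, one row for each RefSeq accession, are as the authors deposited them. FPKM values for the same accessions were also computed and deposited by the authors. Of 33862 accessions, 33485 were named from RefSeq and 188 from GENCODE. WT columns were joined to samples by number, and the other 15 columns to groups only.

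Counts were fitted with edgeR 4.0.16 (R 4.3.3): 11830 accessions passed filterByExpr with the 5 groups. TMM factors lay between 0.761 and 1.22. The quasi-likelihood model held 1 mean for each group, all 19 libraries shared its spread, and the common dispersion was 0.184. Adjusted p is Benjamini-Hochberg over all 11830, with a threshold of 0.05. The 5 comparisons among leukemic groups were tested for Ccn3. The exact permutation tests were two-sided, on log2(CPM + 0.5). CPM is counts over the library total times its TMM factor. The fit was also run on counts simulated from its own dispersions, with the same mean in every group except for added changes. No result here rests on that run, which does not cover genes near 0 in WT or unequal spread between groups.

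The gene, the lists and the tests were chosen with earlier results of these data known. Named genes were Ccn3, the CCN family, receptors, up to 4 called members of each list with the smallest p, the 8 nearest profiles and 5 neighbours on each side; the text holds those with most to describe. Alternatives were RLE factors, no filter, a filter of 5 CPM in 3 libraries, compared groups alone, DESeq2 1.42.0, limma 3.58.1 (voom, and log2 FPKM), prior counts, libraries V3 with V3-2 and V5 with V5-2 summed, and each library left out. Leaving out V3-2 and V5-2 together was added after the data were seen. Depth gives a floor of 3 counts, and no sequence of Ccn3 is shown.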

Additional observations from a re-analysis of the deposited data

Results flagged for a closer look

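For Ccn3 the log2 response to AG-221 in the IDH2 line less that to 5-Aza in the TET2 line was 3.29, with every AG-221 library above and every 5-Aza library below the mean of its vehicle group. The model test of this difference had an adjusted p of 0.0954, so it did not pass, and line and drug cannot be told apart. Fitted changes above 0 with AG-221 and below 0 with 5-Aza held for 21.6% of all tested.

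Among 17 genes in 4 groups of 4 libraries each (68 groups tested), 7 groups had 1 library far from the other 3. Chance marks about 1 in 20 groups of normally spread values, a rate that need not hold at low counts. In TET2-FLT3 vehicle, V1 gave 0 CPM of Ccn2 (others 0.48 to 0.54) and 8.04 CPM of Hes1 (others 0.405 to 0.864), and V5-2 gave 27.2 CPM of Id1 (others 47.3 to 50.4). With AG-221, AG8 gave 0 CPM of Hes1 (others 0.842 to 1.01), AG1 gave 72.8 CPM of Id1 (others 48.3 to 51.9) and AG13 gave 153 CPM of Itgae (others 6.85 to 10). In WT, wt1 gave 0.153 CPM of Dhrs7c (others 0). That is 2 counts, under the floor of 3 counts. The same floor in V1 is 0.409 CPM, near the Ccn2 level of the others. Ccn3 itself had no library far from the other 3 in any group tested.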

How the results depend on the processing

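The direction of each Ccn3 difference was kept under every alternative run. For 5-Aza against TET2-FLT3 vehicle, no filter (-1.75), DESeq2 (-1.77) and limma-voom (-2.15) passed the threshold, and the left-out fits gave -2.26 to -1.44. For IDH2-FLT3 against TET2-FLT3 vehicle, the call ended with the compared groups alone (-2.44, adjusted p = 0.107), limma-voom (-2.71, 0.0641), V3 with V3-2 and V5 with V5-2 summed (-2.26, 0.118) and V3-2 and V5-2 both left out (-2.29, 0.0986); left-out fits gave -3.02 to -2.05. The difference of drug responses passed with no filter (3.28), DESeq2 (3.29), limma-voom (3.89), log2(FPKM + 1) (3.34) and log2(FPKM + 0.1) (3.63), and without V9 or V5-2; left-out fits gave 2.73 to 3.89. AG-221 against vehicle gave 0.97 to 2.14 in left-out fits and passed without V9, and AG-221 against 5-Aza gave 0.32 to 1.39. With a prior count of 2 the fitted differences from WT were 5.80 (IDH2-FLT3 vehicle), 8.20 (TET2-FLT3 vehicle), 7.33 (AG-221) and 6.45 (5-Aza); with 1 library left out the log2 ratio of means ran from 6.16 to 7.31, 8.76 to 9.72, 7.74 to 8.84 and 6.91 to 7.96. Calls over the gene lists were 76, and 129 with DESeq2. Of 135 list counts under other settings, 29 moved, either by over 1.5 times or to or from 0. The cause of these changes, including any part of having fewer libraries, was not tested.

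No paired analysis was possible because the columns of the leukemic groups carry numbers that do not match the replicate numbers of the labels. Every fold against WT rests on 8 counts of Ccn3 over 4 libraries.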
